A study of Homo sapiens with 12 samples.

Results

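Dual-specificity phosphatases (DUSPs) that act on mitogen-activated protein kinases (MAPKs) were examined in TRPC1-silenced Huh7 cells. The 10 genes described are DUSP1, DUSP3, DUSP4, DUSP5, DUSP6, DUSP8, DUSP9, DUSP10, DUSP14 and DUSP16, of 18852 genes named in the probe annotation, and all of their probes were taken, 12 in all. Huh7 is an established human hepatocellular carcinoma line. Control cells (6 samples) received 2 µg of the empty vector and siTRPC1 cells (6 samples) 2 µg of the TRPC1-silencing vector, and RNA was taken after 48 h. Each sample had 1 bead array, and a transcript is read there as the brightness of its probe. The vector carries GFP, and the paper used cells whose transfection efficiency, judged by the GFP signal, was above a set level. No sorting of transfected cells is stated, so the RNA can also come from cells that took up no vector. In such bulk RNA, fewer expressing cells and less transcript per cell cannot be told apart. The labels do not say whether the samples of a group were separate cultures, and the spread between arrays may be technical.

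MAPKs are switched on when a MAPK kinase phosphorylates a threonine and a tyrosine in their activation loop, and DUSPs switch them off by removing both phosphates. The typical members, called MAPK phosphatases, differ in place and substrate: DUSP1, DUSP4 and DUSP5 are nuclear and inducible, DUSP6 and DUSP9 prefer ERK and are cytoplasmic, and DUSP8, DUSP10 and DUSP16 prefer JNK and p38. DUSP3 and DUSP14 are small atypical members without the MAPK-binding domain. Several DUSP genes are transcribed in response to the MAPKs they inactivate, which makes them feedback inhibitors of the cascade.

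Promoter windows of 8 of the 10 genes were at hand (RefSeq, GRCh38.p14, 250 bases before to 50 after the gene start). Those of DUSP1 and DUSP8 are shown because these genes had the largest negative and positive differences among members detected on every array. Capitals mark the cAMP response element (CRE) TGACGTCA, the site bound by the transcription factor CREB, searched on both strands.
DUSP1, chr5:172771146-172771445, minus strand: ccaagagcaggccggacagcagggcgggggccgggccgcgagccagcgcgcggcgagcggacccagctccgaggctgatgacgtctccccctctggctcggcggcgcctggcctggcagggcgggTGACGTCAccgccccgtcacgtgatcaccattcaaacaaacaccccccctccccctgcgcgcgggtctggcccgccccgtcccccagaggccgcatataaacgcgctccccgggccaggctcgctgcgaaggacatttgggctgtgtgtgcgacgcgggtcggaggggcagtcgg
DUSP8, chr11:1572222-1572521, minus strand: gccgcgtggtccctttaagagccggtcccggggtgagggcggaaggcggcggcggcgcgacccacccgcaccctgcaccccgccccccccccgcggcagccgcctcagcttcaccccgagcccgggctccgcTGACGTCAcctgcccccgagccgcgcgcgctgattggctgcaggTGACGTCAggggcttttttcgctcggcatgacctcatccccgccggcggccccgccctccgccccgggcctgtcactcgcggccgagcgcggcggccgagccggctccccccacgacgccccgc

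DUSP1 had 1 CRE, which began 125 bases upstream of the gene start, and a TATA box (TATAAA) that began 30 bases upstream. DUSP8 had 2 CREs, beginning 118 and 74 bases upstream, and no TATA box. The full CRE was found in 649 of 35116 promoter windows of the same length (1.85%) and the TATA box in 11.5%. The windows of DUSP3, DUSP6, DUSP9, DUSP10, DUSP14 and DUSP16 held neither motif. The 8 genes had 10 windows in all, with more than 1 for DUSP9 and DUSP10. The GC box GGGCGG was in every window but that of DUSP6, so in 7 of the 8 genes, and in 45% of all windows. The AP-1 site TGANTCA was in no DUSP window and in 7.71% of all. A match describes the letters of a window and not the binding of a factor.

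Values below are background-corrected, quantile-normalised log2 values (neqc of limma), and a probe was called detected on an array when its signal stood above the negative controls at a detection p under 0.01. Mean array intensities were 457.5 to 641.6 in control and 565.9 to 687.9 in siTRPC1 cells, and 12292 to 13462 probes were detected per array. Control arrays 1 and 2 had the lowest intensities and stood apart. DUSP values that moved with them are therefore also given without them. A probe was tested when 6 or more of the 12 arrays detected it, which left 12902 of 48803. The hepatocyte markers with a probe, 8 of 10 listed, were detected on all 12 arrays, among them ALB and AFP. Of 10 markers of other cells, 8 were detected on 0 arrays, including PTPRC (leukocytes), VWF (endothelium) and COL1A1 (fibroblasts), whereas CD68 and PECAM1 were detected on all 12. Of the hepatocyte markers TTR was called (log2FC = 0.24, standard error 0.05, limma adjusted p = 0.0179). It was also called on the 10 arrays that the paper analysed (adjusted p = 0.0495) and in 11 of the 12 fits with 1 array left out. It was not called without control arrays 1 and 2 (adjusted p = 0.0618), with adjoining arrays treated as correlated (0.0955) or with median centring (0.229). Adjoining arrays are here pairs of consecutive array numbers within a group. The labels do not name such pairs or give a place on the chip. The part of TTR in the differences below was not tested.

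The 1 probe of TRPC1, the targeted gene, was above background on each array. Control cells had a mean log2 value of 8.82 ± 0.12 and siTRPC1 cells of 8.63 ± 0.13 (SD, n = 6 each). The log2FC, siTRPC1 minus control, was -0.19 with a standard error of 0.09 (exact two-sided permutation p = 0.0303, limma adjusted p = 0.302). The siTRPC1 range of 8.50 to 8.85 overlapped the control range of 8.74 to 9.05. On the 10 arrays that the paper analysed it was -0.18 (exact permutation p = 0.00794, limma adjusted p = 0.343). The paper chose those arrays by how well PCR and array matched for TRPC1 itself, so nothing is read from that permutation p. Without control arrays 1 and 2 the log2FC was -0.22 (exact permutation p = 0.0381, limma adjusted p = 0.303). When arrays were centred on their medians the log2FC was -0.10 (exact permutation p = 0.247), or -0.16 relative to the median of all tested probes, which stood at 0.06.

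DUSP transcripts were readily seen in Huh7 cells. Of the 10 genes, 8 were detected on all 12 arrays, DUSP1, DUSP3, DUSP5, DUSP6, DUSP8, DUSP9, DUSP14 and DUSP16. DUSP4 was near the detection limit and DUSP10 was detected on 1 array. Of the 12 probes, 10 passed the filter and were tested. The 10 genes were chosen with earlier results on this contrast in view, in which DUSP4 and DUSP8 stood out, so the differences below are descriptions without a test of their own. In the fit over all tested probes (limma), 0 of the 10 DUSP probes passed an adjusted p of 0.05, against 1.62% of all tested probes (209 of 12902, with 0.961% higher and 0.659% lower). Of the 10, 3 (DUSP1, DUSP4 and DUSP8) had an unadjusted p under 0.05, against 17.1% of all, and the methods' t-test gave 3 as well at an unadjusted p under 0.05 (15.7% of all) and 0 after Benjamini-Hochberg adjustment (0.612% of all). Rank Product, a test on the ranks of differences between arrays, was run on all 48803 probes and not only on the tested ones. It called 0 DUSP probes and 0.0123% of the 48803 over the 12 arrays, and 0 and 0.00615% on the 10 arrays that the paper analysed. Rank Product was written anew here and called far fewer changes than the paper reports with its own run, a gap that was not resolved. The counts of DUSP probes given here come from the contrast by which the genes were chosen, and nothing is read from them. The siTRPC1 and control values did not overlap in 0 of the 10, against 2.15% of all. The median log2FC of the 10 probes was 0.06, and that of all tested probes was -0.004. The difference was positive in 7 probes and negative in 3. For DUSP3, DUSP5, DUSP9, DUSP14 and DUSP16 it lay between 0.01 and 0.11.

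**Figure D1:**
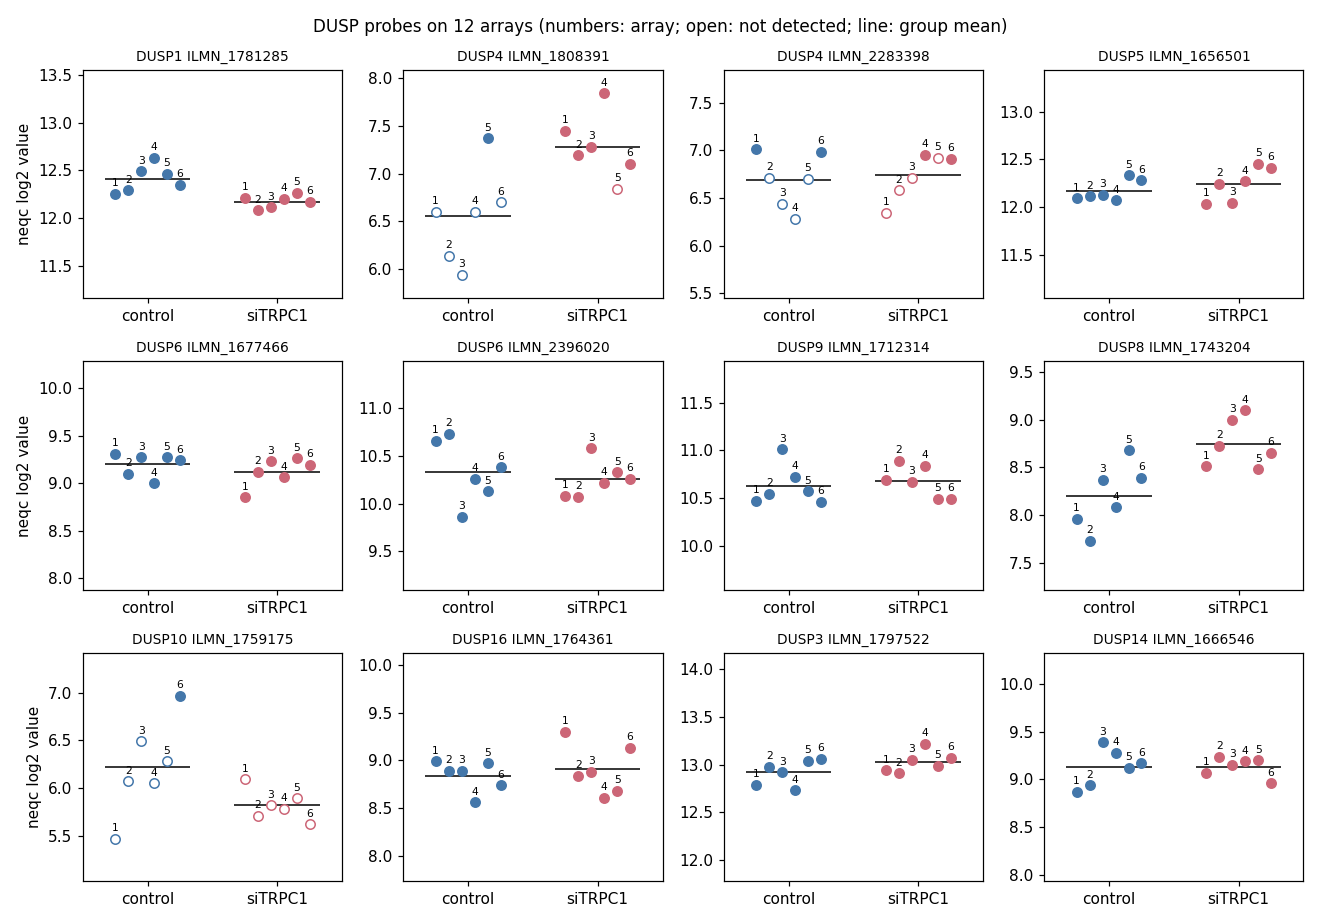
Log2 values (neqc) of the 12 probes of the 10 DUSP genes on each array, with control on the left and siTRPC1 on the right of each panel; every panel spans the same log2 range, numbers are array numbers, filled points are detected, open points are not, and lines are group means. DUSP8 and the first DUSP4 probe lay mostly higher and DUSP1 mostly lower in siTRPC1 cells, with overlap between the groups in each.

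Among the nuclear, inducible phosphatases, DUSP1 was lower, the detected DUSP4 probe was higher and DUSP5 differed little in siTRPC1 cells. DUSP1, an immediate early gene whose product acts on p38, JNK and ERK, had control log2 values of 12.25 to 12.63 (median 12.41) and siTRPC1 values of 12.08 to 12.26 (median 12.18). Of the siTRPC1 arrays 5 lay below every control array, and the exception, siTRPC1 array 5 (12.26), was just above the lowest control, array 1 (12.25). The log2FC of DUSP1 was -0.24 (standard error 0.06, 95% interval -0.37 to -0.11), a fall in level of 15.4% that was not called. The control values of DUSP1 were lower on arrays 1 and 2 (mean 12.27) than on arrays 3 to 6 (12.48). Without control arrays 1 and 2 the log2FC was -0.31 (standard error 0.06) and the probe was called, where 1.47% of all probes were. On the deposited intensity scale, not normalised between arrays, control arrays 1 and 2 were the dimmest for DUSP1, which ranged there from 3537 to 6741 in control and from 4552 to 5339 in siTRPC1 cells.

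DUSP4, whose product inactivates ERK and JNK, has 2 probes, which disagreed. On probe ILMN_1808391 (transcript NM_001394) the control log2 values were 5.94 to 7.37 (median 6.60) and the siTRPC1 values 6.84 to 7.84 (median 7.23). The measured means differed by 0.72 (standard error 0.22, 95% interval 0.28 to 1.17). The probe was detected on 1 control array, array 5, and on 5 siTRPC1 arrays, so it passed the filter only through the group in which it was high, and 5 of the 6 control values behind this difference were not above background. The arrays that ran against the difference were both number 5, the highest control (7.37) and the lowest siTRPC1 value (6.84). The paper left both out because PCR and array gave unlike TRPC1 levels for them. On the other 10 arrays the measured means differed by 0.98, but 0 of 5 control arrays detected the probe there. Against the lowest detectable signal of those arrays (6.94 on average) the siTRPC1 mean of 7.37 was at least 1.35-fold higher. DUSP4 passed the adjusted threshold on these 10 arrays, a call that rests on the same filter and supports nothing.

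The other DUSP4 probe, ILMN_2283398 (transcript NM_057158), was detected on 2 arrays of each group and was not tested. Its log2 values were 6.28 to 7.01 (median 6.70) in control and 6.34 to 6.95 (median 6.81) in siTRPC1 cells, a difference of 0.05. The ranges overlapped almost fully, and siTRPC1 array 1, high on the first probe, was the lowest siTRPC1 array on this one. With intensities of 58.95 to 112.4, this probe was close to background on every array.

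DUSP5, a nuclear phosphatase specific for ERK, was bright and steady. Its log2 values were 12.07 to 12.33 (median 12.12) in control and 12.03 to 12.45 (median 12.26) in siTRPC1 cells. The log2FC was 0.07 (standard error 0.07, 95% interval -0.08 to 0.22), so a change larger than the upper bound lies outside the interval. In both groups the highest values of DUSP5 were those of arrays 5 and 6.

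The ERK phosphatases of the cytoplasm, DUSP6 and DUSP9, differed by less than the spread between arrays. DUSP6 is a classical target and feedback inhibitor of ERK. Its probe ILMN_1677466 (transcript NM_001946) had log2 values of 9.00 to 9.31 (median 9.25) in control and 8.85 to 9.26 (median 9.15) in siTRPC1 cells. Its probe ILMN_2396020 (transcript NM_022652) had 9.86 to 10.73 (median 10.32) in control and 10.07 to 10.58 (median 10.24) in siTRPC1 cells. The log2FC was -0.08 on both (standard errors 0.09 and 0.12, 95% intervals -0.26 to 0.10 and -0.32 to 0.16). The spread behind these equal values was not alike. On ILMN_2396020 control arrays 1 and 2 were the highest of all 12 arrays (mean 10.69, against 10.16 for control arrays 3 to 6), and on ILMN_1677466 the same means differed by 0.01. Without control arrays 1 and 2 the log2FC was 0.10 on ILMN_2396020 and -0.08 on ILMN_1677466. The direction on ILMN_2396020 thus rested on those 2 arrays. With median centring, which left the median of all tested probes at 0.06, the 2 probes gave -0.02 and 0.003, or -0.08 and -0.06 relative to that median.

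DUSP9, an ERK phosphatase abundant in placenta, had log2 values of 10.46 to 11.01 (median 10.55) in control and 10.49 to 10.89 (median 10.68) in siTRPC1 cells. The log2FC was 0.05 (standard error 0.09, 95% interval -0.14 to 0.24), and it was -0.01 without control arrays 1 and 2. Control array 3 was the highest of the 12 arrays.

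Of the phosphatases that prefer JNK and p38, DUSP8 was higher, DUSP16 differed little and DUSP10 was near background. DUSP8 had control log2 values of 7.73 to 8.68 (median 8.22) and siTRPC1 values of 8.48 to 9.10 (median 8.69). Of the control arrays 5 lay below every siTRPC1 array, and control array 5 (8.68) was the exception. The 3 siTRPC1 arrays above every control array were arrays 2, 3 and 4. The log2FC of DUSP8 was 0.54 (standard error 0.14, 95% interval 0.25 to 0.84), or 1.46-fold. Intensities were 133 to 386.3 in control and 338.6 to 548.9 in siTRPC1 cells.

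The size of the DUSP8 difference moved with the arrays used. Control arrays 1 and 2 had a mean log2 value of 7.84, and control arrays 3 to 6 had 8.38. Against the latter alone the log2FC was 0.36 (standard error 0.13) and was not called. On the 10 arrays that the paper analysed it was 0.69 (standard error 0.14) and was called, as were 1.27% of all probes. With median centring it was 0.63 (standard error 0.15), or 0.57 relative to the median of all tested probes, which stood at 0.06. DUSP8 was called there, where 1.12% of all probes were, 128 of them higher and 16 lower. The part of the low signal of control arrays 1 and 2 in these values was not tested.

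**Figure D2:**
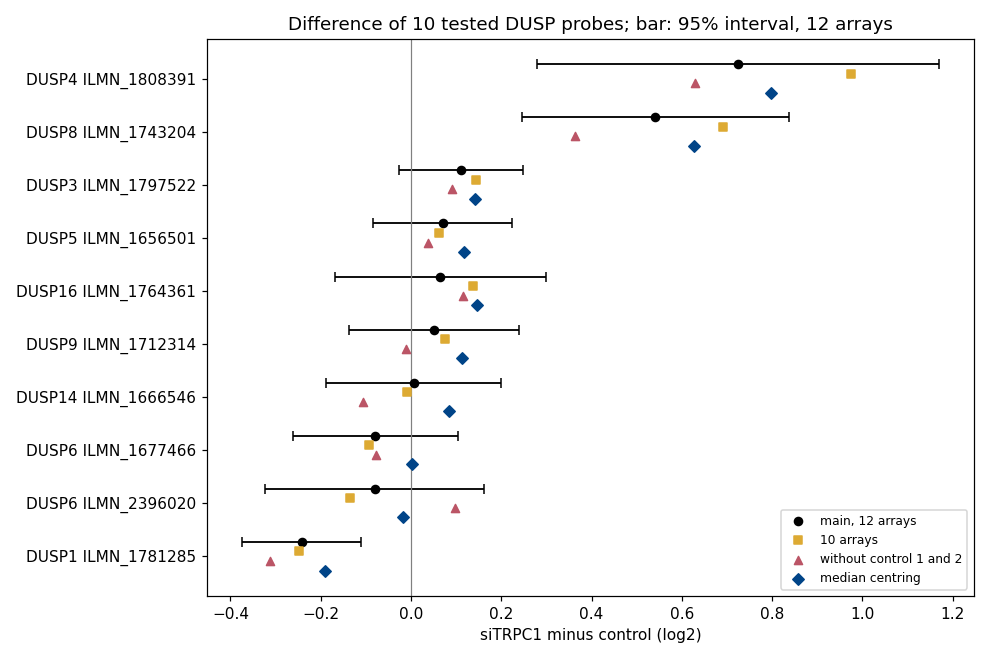
Difference between siTRPC1 and control (log2) of the 10 tested DUSP probes, from the lowest at the bottom to the highest at the top; circles with bars are the estimates from 12 arrays with their 95% intervals, and the other symbols are estimates from 10 arrays, without control arrays 1 and 2, and with median centring. DUSP8 ran from 0.36 to 0.69 and DUSP4 from 0.63 to 0.98 over these settings, and DUSP1 from -0.31 to -0.19. Median centring left the median of all tested probes at 0.06, and its symbols are not corrected for this (DUSP1 at -0.19 was -0.25 relative to that median).

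DUSP16, a JNK phosphatase, had log2 values of 8.56 to 8.99 (median 8.89) in control and 8.61 to 9.30 (median 8.86) in siTRPC1 cells. The log2FC was 0.07 (standard error 0.11, 95% interval -0.17 to 0.30), and it was -0.01 without siTRPC1 array 1, the highest of the 12. DUSP10 was detected on control array 6 (log2 value 6.97) and on 0 of the 6 siTRPC1 arrays, where its values were 5.62 to 6.09 (median 5.80), against 5.47 to 6.97 (median 6.18) in control cells. The mean of the control arrays, 6.22, was below the lowest detectable signal on the siTRPC1 arrays, 6.90 on average, so no fold can be given for DUSP10.

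The atypical members differed little. DUSP3, a phosphatase of ERK and JNK also known as VHR, had log2 values of 12.73 to 13.06 (median 12.95) in control and 12.91 to 13.22 (median 13.02) in siTRPC1 cells. The log2FC was 0.11 (standard error 0.07, 95% interval -0.03 to 0.25), with siTRPC1 array 4 the highest and control array 4 the lowest of the 12. DUSP14, which restrains T-cell receptor signalling, had log2 values of 8.87 to 9.39 (median 9.15) in control and 8.96 to 9.24 (median 9.17) in siTRPC1 cells. Its log2FC was 0.01 (standard error 0.09, 95% interval -0.19 to 0.20). Control arrays 1 and 2 had the lowest DUSP14 values of the 12 arrays (mean 8.91), and without them the log2FC was -0.11.

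**Figure D3:**
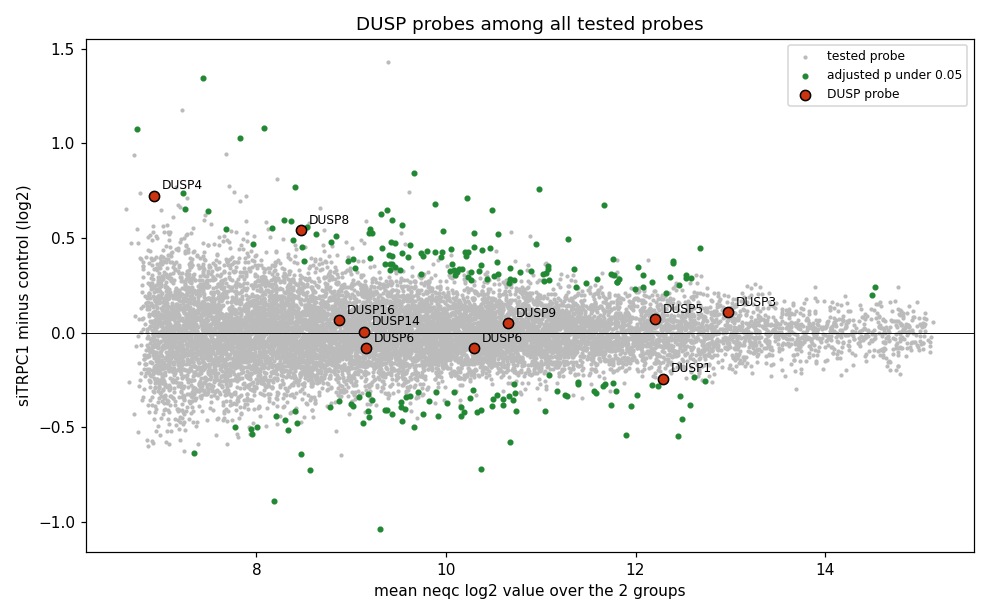
Difference between siTRPC1 and control (log2) against the mean log2 value of the groups for all 12902 tested probes (grey), those with an adjusted p under 0.05 in limma (green) and the 10 DUSP probes (red, named). DUSP4 lay at 0.72, DUSP8 at 0.54 and DUSP1 at -0.24, and the other 7 within the dense band around 0.

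Which DUSP probes were called thus depended on the arrays and scaling. Without control array 1 or control array 2, DUSP1 was called (background 0.969% and 1.17%), and with arrays weighted by their noise it was called too (1.74%). Without control array 5, DUSP8 (0.64) was called, as was DUSP4 (0.89), which none of the remaining control arrays detected (2.14%), and without control array 6 DUSP8 was (1.98%). With the replicate number as a block 0 were called (1.66%), as with adjoining arrays treated as correlated (0.333%). With no detection filter 0 were called too (0.0984% of all 48803 probes). DUSP1, DUSP4 and DUSP8 kept their direction in each of these fits. The fits share most of their arrays and the genes were chosen with this contrast in view, so nothing is read from that.

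Other genes of the MAPK pathway were examined as 6 lists of 82 genes, of which 58 genes were detected and tested with 74 probes. In limma 0 of the 74 passed an adjusted p of 0.05, against 1.62% of all tested probes, and 15 (20.3%) had an unadjusted p under 0.05, against 17.1% of all. Rank Product and the methods' t-test after Benjamini-Hochberg adjustment also called 0. The count was 0 as well on the 10 arrays of the paper and without control arrays 1 and 2. The median log2FC of the 74 probes was -0.01, with a range of -0.26 to 0.36.

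The substrates of the phosphatases were measured with 10 probes of 8 MAPK genes, with a median log2FC of -0.04. MAPK3, which encodes ERK1, was at 0.16 on 1 probe (standard error 0.08, adjusted p = 0.283) and at 0.01 on the other, and MAPK13, a p38 isoform, at -0.26 (standard error 0.14, adjusted p = 0.373). The MAPK kinases, 6 genes on 7 probes, had a median of -0.08. Their highest value was that of MAP2K3, an activator of p38, at 0.19 (standard error 0.09, adjusted p = 0.308).

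Of the DUSP genes outside the 10, 14 had a probe and 9 were tested on 10 probes, with 0 called and a median log2FC of 0.10. DUSP2 and DUSP7, the remaining typical MAPK phosphatases, were detected on 0 of 12 arrays. The RNA phosphatase DUSP11 had a log2FC of -0.19 (standard error 0.08) and DUSP22, a regulator of JNK, of 0.20 and 0.09 on its 2 tested probes. Other phosphatases that act on MAPKs, 7 genes on 10 probes, had a median of 0.05. The lowest was PPM1D, a p53 target that acts on p38, at -0.23 (standard error 0.10, adjusted p = 0.226). The highest was PPP2CB at 0.36 (standard error 0.19, adjusted p = 0.327). PPM1A was at 0.23 on 1 probe (standard error 0.10, adjusted p = 0.258) and at 0.15 and -0.09 on its other tested probes.

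Genes transcribed downstream of ERK, 14 genes on 19 probes, had values in both directions (10 of 19 above 0, median log2FC 0.05). Of these probes 5 (26.3%) had an unadjusted p under 0.05, against 17.1% of all tested probes, and 0 were called. EGR1, an immediate early transcription factor, had 9.68 in control and 10.04 in siTRPC1 cells (log2FC = 0.36, standard error 0.10, adjusted p = 0.0590), and 4 of its 6 siTRPC1 values lay above every control. EGR1 was called with median centring (log2FC = 0.44, with the median of all tested probes at 0.06, limma adjusted p = 0.0297, 1.12% of all called). It was also called in 3 of the 12 fits with 1 array left out. It was not called on the 10 arrays (0.0984), without control arrays 1 and 2 (0.0692) or with adjoining arrays treated as correlated (0.145). CCND1, which encodes cyclin D1, had 13.54 and 13.31 (log2FC = -0.23, standard error 0.07, adjusted p = 0.0712), with 4 of 6 siTRPC1 values below every control. CCND1 was called in 1 of the 12 fits with 1 array left out, and not on the 10 arrays (0.169) or with adjoining arrays correlated (0.195). The ERK feedback inhibitor SPRY1 was at 0.20 (standard error 0.07, adjusted p = 0.119) and 0.07 on its 2 probes, and the ETS factor ETV5 at 0.26 and 0.13. Of their relatives on the list, SPRY2 (-0.15) and ETV4 (-0.15 and -0.07) lay below 0. SPRY4 lay just above 0 (0.05 on each of its tested probes).

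Targets and partners of JNK and p38, 14 genes on 18 probes, had a median log2FC of -0.08. Of these probes 6 (33.3%) had an unadjusted p under 0.05, against 17.1% of all tested probes, and 0 were called. JUN, the transcription factor phosphorylated by JNK, was at -0.24 (standard error 0.08, adjusted p = 0.129). The JNK scaffold SPAG9 had -0.20, -0.22 and -0.13 on its 3 probes (adjusted p = 0.145, 0.170 and 0.395). The JNK partner MAPK8IP3 went the other way, at 0.24 (standard error 0.10, adjusted p = 0.205). MAPKAPK2, the kinase activated by p38, was at 0.28 (standard error 0.11, adjusted p = 0.186), with all 6 siTRPC1 values above every control (the groups did not overlap in 2.15% of all probes). Without control arrays 1 and 2 its adjusted p was 0.616.

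**Figure D4:**
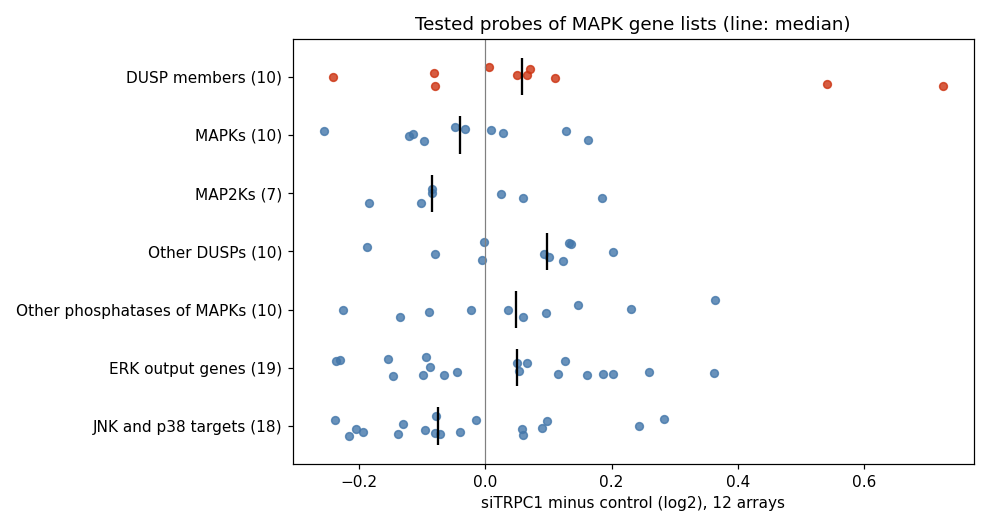
Difference between siTRPC1 and control (log2) of the tested probes of the 10 DUSP genes (red) and of 6 lists of MAPK pathway genes (blue), with 1 point per probe, the number of probes in brackets and a line at each median. The probes of the 6 lists lay between -0.26 and 0.36, and the DUSP probes between -0.24 and 0.72.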

How the data were processed

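The authors hybridised RNA of 12 samples to HumanHT-12 v3 BeadChips. The deposited intensity values had background subtracted in GenomeStudio and were not normalised between arrays. Per the file headers each comes with a detection p-value. The deposited log2 values are the authors' quantile-normalised output of lumi (version not given in the sources used here).

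The neqc function of limma 3.58.1 (R 4.3.3) was run on the intensities of all 12 arrays with an offset of 16. For the 12902 probes with 6 or more arrays at a detection p below 0.01, lmFit and eBayes (trend) compared the conditions with no other covariate, adjusting p by Benjamini-Hochberg over these probes with a threshold of 5%. Names came from the platform annotation through Entrez IDs (28098 probes with 1 symbol, 13 with several, 20692 with none). The DUSP genes and lists were chosen with earlier results of these data known. The named-gene rule took all DUSP probes, called list genes (at most 4 a list), TRPC1 and the 3 probes most like DUSP4, DUSP8 and DUSP3 over the arrays. Since 0 list genes were called, those named in the lists were chosen after their values were seen.

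Alternatives were the paper's 10 arrays, no control arrays 1 and 2, each array left out, the deposited log2 values, offset 50 and median centring. Others were a replicate block, adjoining arrays (consecutive numbers within a group, in pairs) as correlated (statmod 1.5.0), array weights, other filters and the methods' t-test. A Rank Product test was written anew in numpy 2.4.6 (100 permutations, deposited log2 values, all 48803 probes, not the RankProd package). The limma fit was tested on simulated data for siTRPC1 against control (12902 probes): it found 66 of 100 probes changed by 0.5 and 100 of 100 changed by 1 on the log2 scale, with 8 false calls. The number of arrays limits the precision.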

Additional observations from a re-analysis of the deposited data

Results flagged for a closer look

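Each DUSP probe and TRPC1 was examined for an array far from the others of its group, 26 groups of 6 in all, and 1 stood out, where chance would give about 5%. It was TRPC1 on control array 5, with a log2 value of 9.05 against 8.74 to 8.82 on the other control arrays. No DUSP probe had such an array. On the same array the first DUSP4 probe (7.37) and DUSP8 (8.68) had the highest values of the control group.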

How the results depend on the processing

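The differences of single DUSP probes moved by less than the standard deviation between arrays of a group in every setting. That is a wide measure, as DUSP8 went from 0.54 (standard error 0.14) to 0.36 without control arrays 1 and 2. In some settings the sign turned for DUSP9, DUSP14, DUSP16 and each probe of DUSP6. The median of the 10 probes ran from 0.03 to 0.11, the latter with median centring, where the median of all tested probes was 0.06. Calls were less steady. The count of called DUSP probes, 0 in the 12 arrays, was 2 on the paper's 10 arrays (DUSP4 and DUSP8), 1 without control arrays 1 and 2 (DUSP1), 1 with median centring (DUSP8), 1 with array weights (DUSP1) and 3 in the methods' unadjusted t-test. With 1 array left out it was 0 to 2: DUSP1 passed without control array 1 or 2 (log2FC = -0.27 in each), DUSP4 (0.89) and DUSP8 (0.64) without control array 5, and DUSP8 (0.58) without control array 6. The count over all tested probes, 209, was 43 with adjoining arrays treated as correlated (0.313), 48 with no detection filter, 2026 in the methods' unadjusted t-test, 79 in it after adjustment, 6 by Rank Product, 3 by Rank Product on the paper's 10 arrays (a setting chosen after seeing the data, with 0 DUSP probes called) and 98 (without siTRPC1 array 4) to 276 (without control array 5) with 1 array left out. Without siTRPC1 array 3, 5 or 6 or control array 1 it was 110, 131, 123 and 125. The counts with no detection filter and by Rank Product are over all 48803 probes. Same-numbered arrays did not deviate together (r -0.07 to 0.03), and with the number as a replicate block 214 probes and 0 DUSP probes were called, and TRPC1 kept its log2FC of -0.19. The cause of these shifts was not tested. DUSP4 and DUSP10 are limited by signal over background.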

Other observations

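The tested probes whose values ran most like those of DUSP4 (ILMN_1808391) over the 12 arrays were those of TSPY26P (Pearson r = 0.917), MATN3 and SPAG7 (0.890 each). For DUSP8 they were PITHD1 (0.944), AFMID (0.943) and FAM222B (0.940), and for DUSP3 HNRNPU (0.888), NFYC (0.871) and LRCH4 (0.863). These values include the difference between the groups and are the highest of 12902 probes, so they describe the arrays only.

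After the group means were removed, the 45 pairs of tested DUSP probes had r between -0.697 (DUSP6 on ILMN_2396020 with DUSP14) and 0.720 (DUSP9 with DUSP14) over the 12 arrays. DUSP4 and DUSP8 gave 0.616, and the 2 probes of DUSP6 0.170. All pairs share the arrays and their normalisation, and control arrays 1 and 2 were low for DUSP14 and high for ILMN_2396020.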
